A study of Mus musculus with 18 samples.

Results

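The comparison described here sets splenocyte RNA of mice modulated with LPPC/MP/CD28 (LMA, 6 samples) against that of mice modulated with LPPC/MP/CTLA4 (LMS, 6 samples), which make up 12 of the 18 samples of the series. The samples were taken by their treatment label and number, and no measured value entered the choice. LPPC is a lipo-PEG-PEI complex, a liposome with polymers that holds proteins on its surface, and MP is a preparation of membrane proteins from antigen-loaded dendritic cells. Mice of both groups were labelled female C57BL/6J of 4 to 6 weeks and had the same 2 injections of LPPC/MP before 1 or 2 modulations, each with 100 µg of LPPC, 200 µg of MP and 1.5 µg of antibody. The spleens were taken in weeks 4 to 5. Thus the antibody on the complex, against CD28 in LMA and against CTLA4 (CD152 in the labels) in LMS, is the only stated difference. The labels do not say which samples had 1 modulation and which had 2, and no source states whether the 6 samples of a group are 6 different mice. The p-values therefore speak only of the spread among the samples used in each test. The 3 LM samples (LPPC/MP without antibody, week 3) and the 3 untreated N samples are given as reference levels. They also enter the filter and the estimate of spread behind the adjusted p-values of the gene tests.

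CD28 is the main costimulatory receptor of T cells and adds to the signal of the T cell receptor. CTLA4 is a related receptor on activated and regulatory T cells that restrains the response. Both bind CD80 and CD86 on antigen-presenting cells, and CTLA4 binds them more tightly. The spleen also holds B cells, macrophages, red cell precursors and, in the mouse, neutrophil precursors that load their granules stage by stage with proteases and iron-binding proteins.

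Expression is given as FPKM, fragments scaled to gene length and to the size of the library, so that levels of genes can be set beside each other per length. Each sample held between 5.21 and 7.92 gigabases of aligned sequence. Tests were run on log2(FPKM + 0.5) over 11436 protein-coding genes whose mean over all 18 samples reached 0.5 FPKM. A gene whose values stayed under this level in 1 group therefore passed only through the others. The "log2 difference" below is LMA minus LMS on this log2 scale, with its standard error. This scale understates the change of genes near 0 FPKM. A gene is called at a Benjamini-Hochberg adjusted p under 0.05 in limma. In bulk samples, fewer cells of a type and less RNA per cell cannot be told apart.

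The LMS samples fell into 2 sets that the labels do not name. Eif2s3y, a translation factor gene on the Y chromosome, lay between 34.5 and 36.8 FPKM in LMA and between 36.5 and 41.5 in LMS 1, 3, 4 and 6, and was listed at 0 in LMS 2 and LMS 5, although every mouse is labelled female. Xist, the RNA of the inactive X chromosome, was at 59.9 FPKM in LMS 2 and 58.4 in LMS 5, against 1.49 to 2.69 in the other LMS samples and 4.84 to 7.20 in LMA. Hemoglobin genes held 21.3% and 21.8% of protein-coding FPKM in LMS 2 and LMS 5, 0.180 to 0.371% in the other LMS samples and 0.463 to 0.897% in LMA. Of the lymphoid and red cell markers, Cd3e of the T cell receptor, Cd79a of the B cell receptor and the heme synthesis gene Alas2 were also highest in LMS 2 and LMS 5. On the log2 scale LMS 2 and LMS 5 correlated at 0.9936 with each other, at 0.9935 and 0.9933 with the untreated N 2, at 0.705 to 0.749 with the other LMS samples and at 0.730 to 0.766 with LMA, while LMS 1, 3, 4 and 6 correlated with LMA at 0.934 to 0.952. These correlations are over the genes tested and are given as a description. N 1 and N 2 also have Eif2s3y listed at 0, and N 3 does not. The Y-linked transcripts go against the female label of all LMA samples and of LMS 1, 3, 4 and 6, and LMS 2 and 5 stood nearer to an untreated sample than to the rest of their group. Whether each library carries its right label is therefore in doubt and was not settled here, so LMS below means the libraries labelled LMS, and a direction drawn from them holds only as far as the labels do. The labels name spleen, but their extraction protocol speaks of tumours. Lymphoid markers were present in both groups, at unlike levels. The 20 T cell receptor genes tested summed to 113.3 to 174.9 FPKM in LMA, 59 to 127.9 in LMS 1, 3, 4 and 6 and 732.2 to 734.7 in LMS 2 and 5. For 24 macrophage markers the sums were 2775 to 2935, 3492 to 3705 and 986.8 to 1008. Which tissue each library came from was not tested. Of 7 melanocyte genes listed, 1 reached the filter, the transcription factor Mitf, which macrophages also make and which was not called (log2 difference 1.002 ± 0.90, adjusted p = 0.44). Tyr, Tyrp1, Dct, Mlana, Sox10 and Pmel did not reach it. The part of these differences between LMS samples in the results below was not tested, and the values without either set are given instead. Counts and values below are from all samples unless a set is named, and "all 3 fits" are those with all samples, without LMS 2 and 5 and without LMS 1, 3, 4 and 6, which share samples and are not independent tests.

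**Figure D1:**
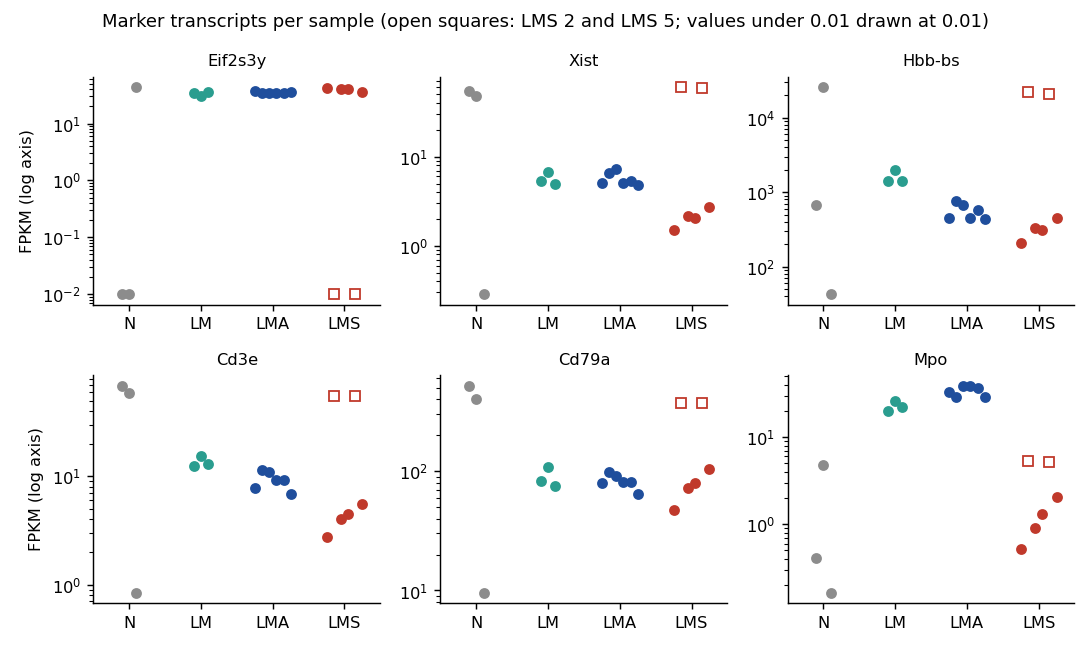
FPKM (log axis) of 6 marker transcripts in each of the 18 samples by group, with LMS 2 and LMS 5 as open squares and values under 0.01 drawn at 0.01. Eif2s3y is listed at 0 in LMS 2 and LMS 5 and lies at 36.5 to 41.5 FPKM in the other LMS samples, and Mpo is higher in all LMA samples than in any LMS sample.

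With all samples, 1296 genes (11.3% of those tested) were called higher in LMA and 2213 (19.4%) lower. Among called genes that differed by more than 2-fold the order was the reverse, with 414 higher in LMA and 173 lower. In 1422 genes (12.4%) all LMA samples lay above all LMS samples and in 2005 (17.5%) all lay below. Without LMS 2 and 5, 1277 genes (11.2%) were called higher and 2730 (23.9%) lower, and without LMS 1, 3, 4 and 6 the counts were 3377 (29.5%) and 3978 (34.8%). In the same direction in all 3 fits were 833 genes (7.28%) higher in LMA and 1336 (11.7%) lower, and 180 genes were called in opposite directions against the 2 sets. Fits to LMA and LMS alone, whose spread leaves out LM and N, called 4015 genes with all LMS samples and 8204 without LMS 2 and 5. The share of higher calls depends on scaling. It was 36.9% of all calls with FPKM as deposited, 51.1% on a TPM scale, which moved the median log2 difference of all genes from -0.12 to -0.02, and 52.3% with a median of ratios. The gene groups described below as higher or lower had calls in the same predominant direction with these 2 scalings.

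**Figure D2:**
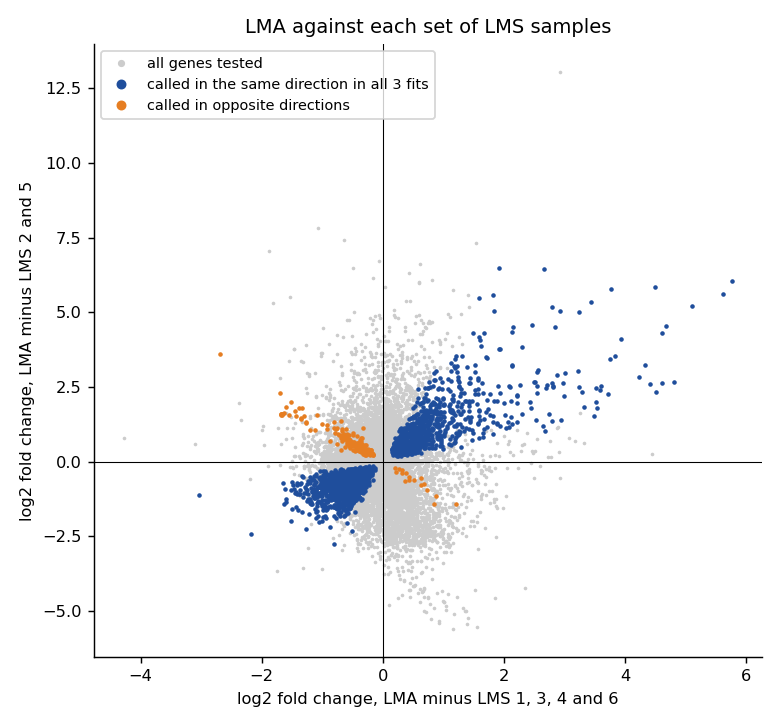
Log2 difference of each of the 11436 genes tested between LMA and LMS 1, 3, 4 and 6 (horizontal axis) and between LMA and LMS 2 and 5 (vertical axis), whose values share the LMA samples. Blue points are the 833 genes higher and 1336 lower in all 3 fits, and orange points are the 180 genes called in opposite directions.

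The receptors that the antibodies bind and their ligands were mostly not called. Of 20 tested members of this group, which also holds other costimulatory and inhibitory receptors, 3 were called higher in LMA and 1 lower, with a median log2 difference of 0.01 against -0.12 over all genes. Cd28, the target in LMA, lay at 3.19 to 4.61 FPKM in LMA (median 3.86), 1.53 to 2.36 in LMS 1, 3, 4 and 6, 14.1 in LMS 2 and 14.98 in LMS 5. The LMA samples lay above one set of LMS samples and below the other, and the log2 difference was 0.01 ± 0.59 (adjusted p = 0.99). Ctla4, the target in LMS, ranged from 3.76 to 4.81 FPKM in LMA (median 4.28) and from 0.958 to 1.93 in LMS 1, 3, 4 and 6, with 5.11 in LMS 2 and 5.30 in LMS 5. Its log2 difference was 0.86 ± 0.43 (adjusted p = 0.15) with all samples and 1.42 (adjusted p = 0.01) without LMS 2 and 5, and LMS 2 and 5 were above LMA. The shared ligands Cd80 and Cd86 had log2 differences of 0.02 (adjusted p = 0.96) and -0.47 (adjusted p = 0.60).

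Among the other checkpoint genes, Cd274, the ligand PD-L1 of the inhibitory receptor PD-1, had a median of 20.8 FPKM in LMA (19 to 21.8), against 1.56 to 1.98 in LMS 1, 3, 4 and 6, 12.9 in LMS 2 and 11.9 in LMS 5. All LMA samples were above all LMS samples, by 2.34 ± 0.55 (adjusted p = 0.0038), but the call was absent without LMS 1, 3, 4 and 6 (0.70, adjusted p = 0.31). Havcr2, the inhibitory receptor TIM-3, lay at 1.73 to 2.51 FPKM in LMA (median 2.07), 4.18 to 4.96 in LMS 1, 3, 4 and 6, 4.10 in LMS 2 and 3.81 in LMS 5. It was lower in every LMA sample than in any LMS sample (log2 difference -0.91 ± 0.11, adjusted p = 1.4e-05). Tnfrsf9, the costimulatory receptor 4-1BB, differed by 0.94 ± 0.20 (adjusted p = 0.002) and Vsir, the inhibitory ligand VISTA, by 0.33 ± 0.06 (adjusted p = 0.00053), both called higher in all 3 fits. The lineage factors and cytokines of T helper cells gave few values to compare. Of 20 listed, 11 passed the filter, and Il2, Il4, Il13, Il17a, Il21 and Il22 did not. The regulatory T cell factor Foxp3 differed by 0.01 ± 0.48 (adjusted p = 0.99), while Bcl6, a transcriptional repressor of follicular helper T cells and germinal centre B cells, was called higher in all 3 fits, at 19.6 to 21.1 FPKM in LMA and 8.80 to 14.04 in LMS.

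Genes of neutrophil precursor granules were higher in LMA. All 16 listed members were called higher with all samples and without LMS 2 and 5, and 13 without LMS 1, 3, 4 and 6, with median log2 differences of 3.17, 3.56 and 2.37. In each of the 16 the LMA samples lay above all LMS samples, where 12.4% of all genes did. The 16 genes together held 0.273 to 0.388% of protein-coding FPKM in LMA and 0.0102 to 0.0494% in LMS, a difference of 0.305 percentage points (two-sided exact permutation test, p = 0.00216, the smallest that 6 against 6 samples can give, and 0.0108 adjusted over 5 shares). As each of the 16 genes was already without overlap, this p-value was near fixed in advance and is no separate support. The list was also chosen with earlier results of these data known.

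Mpo, myeloperoxidase of the primary granules, ranged from 28.6 to 38.9 FPKM in LMA (median 34.7) and from 0.517 to 2.05 in LMS 1, 3, 4 and 6, with 5.27 in LMS 2 and 5.20 in LMS 5. Elane, neutrophil elastase, had a median of 24.2 FPKM in LMA (19.4 to 26.03), against 0.224 to 1.30 in LMS 1, 3, 4 and 6, 2.75 in LMS 2 and 2.93 in LMS 5. Prtn3, proteinase 3, lay at 18.5 to 23.8 FPKM in LMA (median 22.2), 0.258 to 1.10 in LMS 1, 3, 4 and 6, 2.44 in LMS 2 and 1.38 in LMS 5. For these primary granule enzymes the log2 differences were 3.80 ± 0.48, 3.75 ± 0.43 and 3.96 ± 0.35, and LMS 2 and 5 lay between LMA and the other LMS samples. Ctsg, cathepsin G, ranged from 10.2 to 15.6 FPKM in LMA (median 13.7) and from 0.283 to 0.791 in LMS 1, 3, 4 and 6, with 0.500 in LMS 2 and 1.08 in LMS 5. Its log2 difference was 3.65 ± 0.24 (adjusted p = 1.7e-08), and here the 2 sets of LMS samples overlapped. The secondary granule genes were more abundant. Ngp, neutrophilic granule protein, had a median of 473 FPKM in LMA (387 to 537), against 11.7 to 26.4 in LMS 1, 3, 4 and 6, 73.7 in LMS 2 and 74.2 in LMS 5. Ltf, the iron binder lactoferrin, lay at 81.7 to 114 FPKM in LMA (median 99.7), 2.38 to 5.41 in LMS 1, 3, 4 and 6, 18.8 in LMS 2 and 19.04 in LMS 5. Lcn2, lipocalin 2, which binds bacterial siderophores, ranged from 112 to 207 FPKM in LMA (median 138) and from 3.95 to 6.56 in LMS 1, 3, 4 and 6, with 21.2 in LMS 2 and 23.8 in LMS 5. The log2 differences were 3.95 ± 0.69 (adjusted p = 0.00034), 3.79 ± 0.63 (adjusted p = 0.00023) and 4.10 ± 0.59 (adjusted p = 6.1e-05). Camp, the antimicrobial cathelicidin, differed by 3.18 ± 0.49, and Cebpe, the transcription factor of late granule genes, by 1.01 ± 0.21. Chil3, Olfm4 and Ltb4r1 were called with all samples but not without LMS 1, 3, 4 and 6.

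Markers of mature neutrophils were less uniform, with 10 of 17 called higher, none lower, and 6 in all 3 fits. The calprotectin subunits were the most abundant, S100a8 at 502 to 722 FPKM in LMA and 32.9 to 119 in LMS, and S100a9 at 889 to 1192 and 87.9 to 231. Ly6g, the surface antigen of mouse neutrophils, differed by 3.23 ± 0.39, Trem1, an amplifying receptor of myeloid cells, by 2.62 ± 0.30, and the decoy receptor Il1r2 by 1.57 ± 0.35. Mmp9, a granule gelatinase, and Retnlg, a resistin-like protein, were called with all samples (1.87 ± 0.67 and 3.04 ± 1.02) but not without LMS 1, 3, 4 and 6. A pair of receptor genes on the list was not called. Cxcr2, the receptor that draws neutrophils out of the marrow, had a median of 3.14 FPKM in LMA (2.80 to 3.75), against 0.505 to 1.16 in LMS 1, 3, 4 and 6, 8.16 in LMS 2 and 7.77 in LMS 5. Csf3r, the receptor for G-CSF, lay at 6.51 to 8.46 FPKM in LMA (median 7.84), 2.59 to 5.72 in LMS 1, 3, 4 and 6, 23.4 in LMS 2 and 23.2 in LMS 5. Neither was called with all samples (adjusted p = 0.56 and 0.94), and for both LMS 2 and 5 were above LMA. The basophil proteases Mcpt8 and Prss34 were called higher in all 3 fits. Mcpt8 ranged from 6.75 to 11.6 FPKM in LMA (median 8.70) and from 0.221 to 0.426 in LMS 1, 3, 4 and 6, with 1.36 in LMS 2 and 2.40 in LMS 5. Prss34 had a median of 7.12 FPKM in LMA (6.78 to 7.76), against 0.214 to 0.404 in LMS 1, 3, 4 and 6, 0.562 in LMS 2 and 1.20 in LMS 5. The log2 differences were 3.01 ± 0.36 and 2.997 ± 0.22, and 4 of 7 tested basophil and mast cell genes were called higher, none lower.

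Promoters of 3 granule genes and 2 inflammatory genes are shown because the granule genes moved together and C/EBP factors are known regulators of granule genes, as NF-kB is of Cxcl2 and Acod1. The 250 bases before the transcription start are from RefSeq on GRCm38.p6, 5′ to 3′ on the strand of the gene, and capitals mark matches, on either strand, to TTGCNNAA (C/EBP) in the first 3 and GGANTTTCC (kappa-B) in the last 2.
Ngp, chr9:110419558-110419807, plus strand: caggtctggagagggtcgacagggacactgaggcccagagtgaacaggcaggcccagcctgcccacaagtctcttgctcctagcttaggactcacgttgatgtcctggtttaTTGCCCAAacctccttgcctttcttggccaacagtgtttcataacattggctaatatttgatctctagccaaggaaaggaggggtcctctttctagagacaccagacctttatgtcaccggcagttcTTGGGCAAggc
Ltf, chr9:111019042-111019291, plus strand: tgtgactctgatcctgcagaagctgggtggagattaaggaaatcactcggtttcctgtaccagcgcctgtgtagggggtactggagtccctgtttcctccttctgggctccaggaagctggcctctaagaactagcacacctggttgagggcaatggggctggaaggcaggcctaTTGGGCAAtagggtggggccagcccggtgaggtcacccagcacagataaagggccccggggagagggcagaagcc
Lcn2, chr2:32387740-32387989, minus strand: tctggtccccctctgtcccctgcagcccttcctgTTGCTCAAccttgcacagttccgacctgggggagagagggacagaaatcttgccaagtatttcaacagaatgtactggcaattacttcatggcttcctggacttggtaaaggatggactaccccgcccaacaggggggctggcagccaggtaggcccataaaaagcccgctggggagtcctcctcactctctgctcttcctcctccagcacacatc
Cxcl2, chr5:90903649-90903898, plus strand: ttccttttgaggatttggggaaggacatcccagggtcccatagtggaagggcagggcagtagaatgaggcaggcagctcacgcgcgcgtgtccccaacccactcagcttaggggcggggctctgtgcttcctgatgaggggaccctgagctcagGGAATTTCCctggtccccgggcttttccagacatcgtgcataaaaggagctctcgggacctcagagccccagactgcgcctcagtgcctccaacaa
Acod1, chr14:103046762-103047011, plus strand: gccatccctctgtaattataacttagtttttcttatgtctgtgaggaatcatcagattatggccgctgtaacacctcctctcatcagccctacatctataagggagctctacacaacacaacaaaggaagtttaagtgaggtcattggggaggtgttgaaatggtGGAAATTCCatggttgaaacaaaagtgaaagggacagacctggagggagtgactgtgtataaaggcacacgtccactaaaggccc
The matches begin 138 and 11 bases before the start in Ngp, 75 in Ltf, 216 in Lcn2, 96 in Cxcl2 and 85 in Acod1. Of 15 granule genes with a promoter in the table, 5 (33.3%) held the C/EBP letters. They stood in 9.14% of the promoters of 8763 genes tested, in 9.43% of those of 647 genes called higher in all 3 fits and in 8.38% of 1050 called lower. The kappa-B letters stood in 1.40%, 2.01% and 0.762% of these 3 sets, and the AP-1 letters TGANTCA in 5.20%, 5.72% and 4.48%. A match is a description of these letters and not of a bound site.

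Targets of IL-17 signaling, many of them acute-phase and chemokine genes, were nearly all higher in LMA. Of 16 tested, 15 were called higher, 12 of them in all 3 fits, with a median log2 difference of 2.13. The list shares Lcn2 with the granule genes and S100a8, S100a9 and Mmp9 with the neutrophil markers. Ptgs2, cyclooxygenase 2, which makes prostaglandins, lay at 91.8 to 103 FPKM in LMA (median 95.1), 6.39 to 6.78 in LMS 1, 3, 4 and 6, 1.26 in LMS 2 and 1.22 in LMS 5. Nfkbiz, the cofactor IkB-zeta, ranged from 21.3 to 29.1 FPKM in LMA (median 26.3) and from 3.61 to 5.83 in LMS 1, 3, 4 and 6, with 7.71 in LMS 2 and 4.88 in LMS 5. Csf3, the neutrophil growth factor G-CSF, had a median of 3.92 FPKM in LMA (3.07 to 4.05), against 0 to 0.0315 in LMS 1, 3, 4 and 6, 0.0669 in LMS 2 and 0.0236 in LMS 5. LMA and LMS did not overlap in any of these, with log2 differences of 4.44 ± 0.42, 2.28 ± 0.25 and 2.99 ± 0.09. The C/EBP factor genes Cebpb and Cebpd were also called higher in all 3 fits, at 0.94 ± 0.16 and 0.75 ± 0.07.

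The gene with the highest log2 difference that was called in all 3 fits was Saa3, an acute-phase apolipoprotein. Saa3 lay at 50.3 to 58.8 FPKM in LMA (median 53.01), 0.348 to 0.733 in LMS 1, 3, 4 and 6, 0.268 in LMS 2 and 0.383 in LMS 5. The log2 difference was 5.86 ± 0.13 (adjusted p = 1.3e-14), and LMS 2 and 5 lay within or just below the range of the other LMS samples. Wfdc17, a secreted protein of activated macrophages, ranged from 172 to 194 FPKM in LMA (median 184) and from 4.23 to 5.48 in LMS 1, 3, 4 and 6, with 4.21 in LMS 2 and 4.82 in LMS 5. Lipg, endothelial lipase, had a median of 12.6 FPKM in LMA (11.5 to 13.3), against 0 to 0.0281 in LMS 1, 3, 4 and 6, 0.0679 in LMS 2 and 0.0536 in LMS 5. Pdpn, the membrane glycoprotein podoplanin, lay at 7.31 to 8.61 FPKM in LMA (median 8.16), 0.0501 to 0.0776 in LMS 1, 3, 4 and 6, 0 in LMS 2 and 0 in LMS 5. Of these, the log2 differences were 5.14 ± 0.09, 4.63 ± 0.07 and 3.99 ± 0.08, each with no overlap. Urah, an enzyme of urate breakdown, was at 23.04 to 26.7 FPKM in LMA and listed at 0 in 5 of 6 LMS samples and at 0.0175 in the other, so no fold is given (adjusted p = 2.2e-19). Timp1, an inhibitor of matrix metalloproteinases, ranged from 7.32 to 8.69 FPKM in LMA (median 7.80) and from 0 to 0.172 in LMS 1, 3, 4 and 6, with 0.331 in LMS 2 and 0.118 in LMS 5. Its log2 difference was 3.74 ± 0.12, again with no overlap.

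Chemokines of the CC family, which draw monocytes and T cells, had 5 of 9 tested members called higher in LMA, 3 of them in all 3 fits, and none lower. Ccl3, MIP-1 alpha, had a median of 653 FPKM in LMA (617 to 696), against 97.8 to 107 in LMS 1, 3, 4 and 6, 6.06 in LMS 2 and 7.89 in LMS 5. Ccl4, MIP-1 beta, lay at 154 to 171 FPKM in LMA (median 157), 15.9 to 17.2 in LMS 1, 3, 4 and 6, 4.31 in LMS 2 and 4.61 in LMS 5. Ccl7, MCP-3, ranged from 2.05 to 3.05 FPKM in LMA (median 2.46) and from 0.0755 to 0.151 in LMS 1, 3, 4 and 6, with 0 in LMS 2 and 0 in LMS 5. The samples were ordered LMA, LMS 1, 3, 4 and 6, and LMS 2 and 5 from high to low in all 3 genes, with log2 differences of 3.93 ± 0.77, 3.83 ± 0.38 and 2.37 ± 0.14. Ccl5, made by T and NK cells, had a median of 33.4 FPKM in LMA (31.3 to 37.5), against 6.42 to 11.7 in LMS 1, 3, 4 and 6, 55.6 in LMS 2 and 58.01 in LMS 5. It was not called (adjusted p = 0.38), and LMS 2 and 5 exceeded LMA. Of 7 CXC chemokines, Cxcl2, which attracts neutrophils, was called higher in all 3 fits (2.43 ± 0.53, adjusted p = 0.0022), and the interferon-induced Cxcl10 was called lower with all samples (-0.64 ± 0.23, adjusted p = 0.047), though on the TPM scale, with a median of ratios or without LMS 1, 3, 4 and 6 it was not.

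Cytokines with restraining roles stood beside the inflammatory ones. Il10, which dampens macrophages and T cells, lay at 16.2 to 18.4 FPKM in LMA (median 17.3), 0.170 to 0.295 in LMS 1, 3, 4 and 6, 0.454 in LMS 2 and 0.356 in LMS 5. LMA exceeded LMS by 4.50 ± 0.09 (adjusted p = 1.7e-15), and the 2 sets of LMS samples gave 4.61 and 4.30. Il1rn, the antagonist of the interleukin-1 receptor, ranged from 157 to 177 FPKM in LMA (median 169) and from 6.19 to 8.14 in LMS 1, 3, 4 and 6, with 1.95 in LMS 2 and 3.04 in LMS 5. Its log2 difference was 4.94 ± 0.29 (adjusted p = 4.4e-09). Il1b, interleukin-1 beta itself, had a median of 16.5 FPKM in LMA (12.6 to 18.4), against 16.3 to 36.04 in LMS 1, 3, 4 and 6, 36.7 in LMS 2 and 34.4 in LMS 5. Here LMA overlapped the lowest LMS samples, with no call in any of the 3 fits (-0.81 ± 0.49, adjusted p = 0.24). Of 12 tested members of the interleukin-1 family, 4 were called higher and 2 lower. Il33, an alarmin, was at 2.14 to 2.94 FPKM in LMA and listed at 0 in LMS 1, 3, 4 and 6, at 0.104 in LMS 2 and at 0.0821 in LMS 5 (adjusted p = 1.1e-10). Il1rap, the accessory chain of the receptor, was lower in all 3 fits (-0.32 ± 0.08). Of 14 other cytokines, 6 were called higher and none lower. Il6 was low but distinct, at 0.757 to 1.46 FPKM in LMA and 0.0161 to 0.464 in LMS. Both chains of interleukin-27, Il27 and Ebi3, were called in all 3 fits, at 1.80 ± 0.19 and 1.52 ± 0.15. Tnf was not called with all samples (1.12 ± 0.47, adjusted p = 0.085), though all LMA samples lay above all LMS samples. It was called without LMS 1, 3, 4 and 6 (2.64, adjusted p = 0.00064) and not without LMS 2 and 5 (0.36, adjusted p = 0.42). Ifng overlapped between the groups and was called in none of the 3 fits (0.32 ± 0.46, adjusted p = 0.65 with all samples).

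**Figure D3:**
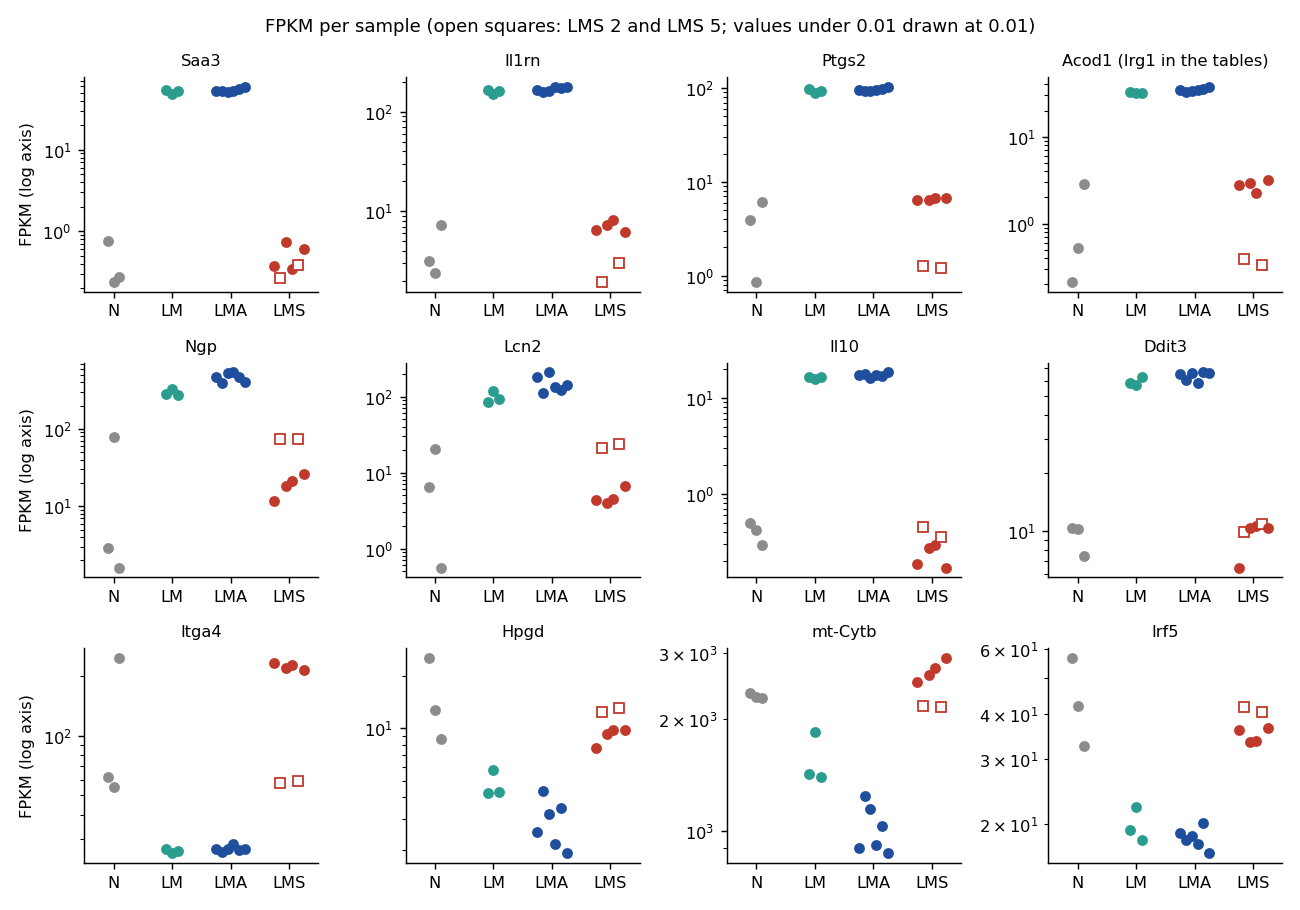
FPKM (log axis) of 12 genes in each of the 18 samples by group, with LMS 2 and LMS 5 as open squares and values under 0.01 drawn at 0.01. In the upper 8 genes all LMA samples lie above all LMS samples, and in the lower 4 all lie below. The mean of the LM samples is nearer to LMA than to LMS in each.

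Enzymes of activated macrophages that make nitric oxide and itaconate were higher, 5 of 7 tested in each of the 3 fits and none lower. Nos2, inducible nitric oxide synthase, lay at 19.6 to 21.9 FPKM in LMA (median 20.4), 2.40 to 2.80 in LMS 1, 3, 4 and 6, 0.0859 in LMS 2 and 0.0933 in LMS 5. Irg1, which is Acod1 and makes itaconate, ranged from 32.9 to 37.4 FPKM in LMA (median 34.6) and from 2.22 to 3.20 in LMS 1, 3, 4 and 6, with 0.392 in LMS 2 and 0.334 in LMS 5. For these the log2 differences were 3.58 ± 0.51 (adjusted p = 4.9e-05) and 4.07 ± 0.41 (adjusted p = 1.7e-06), and LMS 2 and 5 were the lowest samples. Odc1, which makes polyamines from ornithine, differed by 0.99 ± 0.18, and Sod2, the mitochondrial superoxide dismutase, by 0.60 ± 0.17. Arg1 did not pass the filter. In the prostaglandin pathway Ptges, the prostaglandin E synthase, was higher in all 3 fits (1.38 ± 0.12), and Hpgd, which degrades prostaglandins and was not on the list, was lower in all 3 (-1.68 ± 0.23). Ptgs1, the constitutive cyclooxygenase, was lower with all samples (-0.53 ± 0.11, adjusted p = 0.0012) but not called without LMS 1, 3, 4 and 6.

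Genes of metal handling had 9 of 16 members called higher, 8 in all 3 fits, and none lower. Fth1, the heavy chain of the iron store ferritin, had a median of 3718 FPKM in LMA (3533 to 3891), against 1432 to 1439.5 in LMS 1, 3, 4 and 6, 890.1 in LMS 2 and 912 in LMS 5. Hmox1, heme oxygenase 1, which frees iron from heme, lay at 264 to 283 FPKM in LMA (median 274), 62.4 to 70.2 in LMS 1, 3, 4 and 6, 125 in LMS 2 and 123 in LMS 5. Mt2, a metallothionein, ranged from 272 to 304 FPKM in LMA (median 288) and from 36.05 to 38.6 in LMS 1, 3, 4 and 6, with 7.88 in LMS 2 and 8.67 in LMS 5. These abundant transcripts were higher in every LMA sample than in any LMS sample, by 1.59 ± 0.19, 1.74 ± 0.21 and 3.63 ± 0.64 on the log2 scale. Slc11a1, the iron transporter NRAMP1 of phagosomes, differed by 1.74 ± 0.08 and Cp, the ferroxidase ceruloplasmin, by 2.23 ± 0.14. Slc40a1, the iron exporter ferroportin, had a median of 8.82 FPKM in LMA (5.86 to 10.4), against 4.17 to 8.62 in LMS 1, 3, 4 and 6, 72.1 in LMS 2 and 71.6 in LMS 5. It was not called (adjusted p = 0.57), with LMS 2 and 5 far above all other samples of the comparison.

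Lysosomal genes had 7 of 20 called higher and none lower, among them the cathepsins Ctsd (1.81 ± 0.20) and Ctsb (1.33 ± 0.17) and the cholesterol carriers Npc1 (0.83 ± 0.14) and Npc2 (0.93 ± 0.13), all in the 3 fits. Macrophage markers differed between the sets of LMS samples. Of 24, 5 were called higher and none lower with all samples, but 10 higher and 8 lower without LMS 1, 3, 4 and 6. In that last fit 29.5% of all genes were called higher and 34.8% lower, so the count of lower markers was near the share of all genes. The medians with all samples, without LMS 2 and 5 and without LMS 1, 3, 4 and 6 were 0.02, 0.49 and -2.06. Among the lower ones against LMS 2 and 5 were the mannose receptor Mrc1 (-2.47) and Spic, the factor of red pulp macrophages (-2.65), which were not called with all samples (-0.40 ± 0.75 and -0.44 ± 0.81). The 5 called higher were so in all 3 fits. Siglec1, a sialic acid receptor, was 1 of them and differed by 1.84 ± 0.17, the scavenger receptor Msr1 by 3.44 ± 0.94, the high-affinity IgG receptor Fcgr1 by 1.85 ± 0.44 and Adgre1 (F4/80) by 0.82 ± 0.20. Cd36, a receptor for oxidized lipids, lay at 116 to 129 FPKM in LMA (median 126), 29.4 to 31.95 in LMS 1, 3, 4 and 6, 41.9 in LMS 2 and 41.7 in LMS 5. Abcg1, which exports cholesterol, ranged from 8.96 to 9.78 FPKM in LMA (median 9.18) and from 16.9 to 18.3 in LMS 1, 3, 4 and 6, with 15.8 in LMS 2 and 15.7 in LMS 5. They moved in opposite directions, 1.86 ± 0.13 (adjusted p = 2.2e-08) and -0.84 ± 0.06 (adjusted p = 7.6e-08), in all 3 fits. Spp1, the matrix protein osteopontin, had a median of 6549 FPKM in LMA (6235 to 6966), against 831 to 891 in LMS 1, 3, 4 and 6, 0.246 in LMS 2 and 0.310 in LMS 5. It had the greatest log2 difference of all genes called without overlap, 6.30 ± 2.10 (adjusted p = 0.032). Without LMS 2 and 5 it was 2.93 and not called (adjusted p = 0.14), in a fit whose spread also takes in LM and N. LMA still lay above each of LMS 1, 3, 4 and 6. The size with all samples depends on LMS 2 and 5. Of 17 complement genes, 5 were called higher and 1 lower with all samples, 4 and 1 of them in all 3 fits, with a median of -0.04. Called in all 3 fits were Itgam, a chain of complement receptor 3, at 2.50 ± 0.23 and the alternative pathway factor Cfb at 2.42 ± 0.38, and, lower in LMA, Cr1l, a complement regulator, at -0.79 ± 0.15.

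Early response genes were partly higher. Of 22 AP-1 and EGR genes, 10 were called higher, none lower and 7 in all 3 fits, with a median of 0.75. Egr1 differed by 1.16 ± 0.10, Klf6 by 1.20 ± 0.11, Jun by 0.99 ± 0.20 and Fos by 0.88 ± 0.20. Atf3, a repressor induced by stress, lay at 67.3 to 74.2 FPKM in LMA (median 72.5), 22.5 to 24.03 in LMS 1, 3, 4 and 6, 1.27 in LMS 2 and 0.966 in LMS 5. Myc, a driver of cell growth, ranged from 19.5 to 23.3 FPKM in LMA (median 22.1) and from 2.66 to 4.04 in LMS 1, 3, 4 and 6, with 32.9 in LMS 2 and 31.3 in LMS 5. Atf3 was called in all 3 fits (2.89 ± 0.77), and Myc was not called with all samples (1.48 ± 0.74, adjusted p = 0.15), with LMS 2 and 5 above LMA. Inhibitors of the same signals were among the higher genes. Nfkbia, the inhibitor of NF-kB, was at 114 to 126 FPKM in LMA and 37.6 to 49.5 in LMS (1.48 ± 0.12, adjusted p = 1.7e-07). Tnip1, a partner of A20, differed by 1.02 ± 0.16, the MAP kinase phosphatase Dusp4 by 2.01 ± 0.32, and Gadd45b, a regulator of stress kinases, by 1.93 ± 0.11. Socs3, which blocks signaling of IL-6 receptors, had a median of 43.2 FPKM in LMA (41.01 to 45.96), against 3.495 to 4.70 in LMS 1, 3, 4 and 6, 12.1 in LMS 2 and 11.9 in LMS 5. Its log2 difference was 2.82 ± 0.40 (adjusted p = 5e-05). Tnfaip3, A20, lay at 21.3 to 29.1 FPKM in LMA (median 27.7), 4.74 to 6.14 in LMS 1, 3, 4 and 6, 12.7 in LMS 2 and 12.5 in LMS 5. A20 was called with all samples (1.82 ± 0.33, adjusted p = 0.00054) and not without LMS 1, 3, 4 and 6.

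The integrated stress response had 9 of 21 genes called higher and none lower, 5 in all 3 fits. Ddit3, the transcription factor CHOP, ranged from 58.6 to 66.2 FPKM in LMA (median 65.1) and from 6.49 to 10.7 in LMS 1, 3, 4 and 6, with 9.87 in LMS 2 and 10.9 in LMS 5. Trib3, a target of CHOP, had a median of 6.57 FPKM in LMA (5.81 to 7.31), against 1.69 to 2.11 in LMS 1, 3, 4 and 6, 0.378 in LMS 2 and 0.650 in LMS 5. Atf4, the factor upstream of both, lay at 139 to 152 FPKM in LMA (median 147), 89.5 to 92.4 in LMS 1, 3, 4 and 6, 71.9 in LMS 2 and 68.97 in LMS 5. All 3 were higher in every LMA sample, by 2.66 ± 0.11, 1.98 ± 0.27 and 0.81 ± 0.08. Of 22 regulators of apoptosis, 8 were called higher and 1 lower. In all 3 fits the inhibitors Cflar (1.16 ± 0.16) and Mcl1 (0.25 ± 0.06) were higher, and so were the inducer Bbc3 (1.35 ± 0.35) and the inflammatory caspase Casp1 (0.47 ± 0.05).

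Toll-like receptor signaling had the most lower calls of the immune lists, 10 of 24 genes (41.7%, against 19.4% of all genes), with 4 higher. Of the receptors, Tlr13, which senses bacterial ribosomal RNA, ranged from 3.03 to 3.76 FPKM in LMA (median 3.48) and from 9.50 to 9.98 in LMS 1, 3, 4 and 6, with 5.75 in LMS 2 and 6.51 in LMS 5. Tlr7, which senses single-stranded RNA, had a median of 6.67 FPKM in LMA (5.97 to 7.05), against 30.1 to 34.4 in LMS 1, 3, 4 and 6, 10.5 in LMS 2 and 9.79 in LMS 5. LMA lay below all LMS samples in both, with log2 differences of -1.17 ± 0.17 and -1.65 ± 0.32, and Tlr7 was not called without LMS 1, 3, 4 and 6 (adjusted p = 0.092). Downstream, the adaptor Tirap (-0.69 ± 0.11), the kinase Irak1 (-0.57 ± 0.09), the ubiquitin ligase Traf6 (-0.56 ± 0.06) and the factors Irf3 (-0.91 ± 0.23) and Irf5 (-0.996 ± 0.11) were lower in all 3 fits. Irf7, the factor that amplifies type I interferon, lay at 66.7 to 76.1 FPKM in LMA (median 73.3), 21.01 to 26.9 in LMS 1, 3, 4 and 6, 21.7 in LMS 2 and 22.1 in LMS 5. It went the other way (1.62 ± 0.07, adjusted p = 1.3e-10), as did the adaptor Ticam1 (0.81 ± 0.07) and the kinase Irak2 (0.52 ± 0.09). Tlr2, the receptor for bacterial lipoproteins, ranged from 11.9 to 12.9 FPKM in LMA (median 12.6) and from 33.3 to 37.3 in LMS 1, 3, 4 and 6, with 4.08 in LMS 2 and 3.97 in LMS 5. It was not called with all samples and was called in opposite directions against the 2 sets (-1.44 and 1.53).

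Transcripts of the mitochondrial genome, which encode subunits of the respiratory chain, were lower in LMA. Of 13, 12 were called lower and 8 in all 3 fits, with a median log2 difference of -0.79. mt-Cytb, cytochrome b, had a median of 977 FPKM in LMA (874 to 1243), against 2518 to 2916 in LMS 1, 3, 4 and 6, 2165 in LMS 2 and 2148 in LMS 5. mt-Nd1, a subunit of complex I, lay at 941 to 1287 FPKM in LMA (median 1022), 2746 to 3094 in LMS 1, 3, 4 and 6, 2135 in LMS 2 and 2137 in LMS 5. mt-Co1, a subunit of complex IV and the most abundant of the 13, ranged from 8708 to 9224 FPKM in LMA (median 9091) and from 10262 to 11105 in LMS 1, 3, 4 and 6, with 6126 in LMS 2 and 6198 in LMS 5. The first 2 were lower in every LMA sample than in any LMS sample, with log2 differences of -1.31 ± 0.11 and -1.30 ± 0.12, and mt-Co1 was not called (0.03 ± 0.17, adjusted p = 0.92). Together the 13 held 7.83 to 8.87% of protein-coding FPKM in LMA and 12.8 to 13.7% in LMS 1, 3, 4 and 6, but 8.03% and 7.98% in LMS 2 and 5, so the share was not called with all samples (exact permutation test, p = 0.0411, and 0.103 adjusted over 5 shares). Of 23 respiratory chain subunits that are encoded in the nucleus, none was called with all samples, 5 were lower without LMS 2 and 5, and 16 were higher without LMS 1, 3, 4 and 6, with medians of 0.06, -0.24 and 0.59.

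Among single genes, Itga4, the integrin alpha 4 chain of lymphocytes and monocytes, had a median of 26.7 FPKM in LMA (26.03 to 28.3), against 215 to 233 in LMS 1, 3, 4 and 6, 57.5 in LMS 2 and 59.1 in LMS 5. It had the greatest decrease of all called genes without overlap, -2.39 ± 0.41 (adjusted p = 0.0003), with LMS 2 and 5 nearer to LMA. Lpar5, a receptor for lysophosphatidic acid, lay at 0.145 to 1.60 FPKM in LMA (median 0.988), 4.48 to 6.86 in LMS 1, 3, 4 and 6, 6.54 in LMS 2 and 6.75 in LMS 5. Hpgd ranged from 1.91 to 4.35 FPKM in LMA (median 2.87) and from 7.70 to 9.81 in LMS 1, 3, 4 and 6, with 12.5 in LMS 2 and 13.1 in LMS 5. The log2 differences were -2.27 ± 0.27 and -1.68 ± 0.23, and these held in all 3 fits. Serinc3, a membrane protein known as a restriction factor of retroviruses, had a median of 127 FPKM in LMA (123 to 132), against 298 to 307 in LMS 1, 3, 4 and 6, 307 in LMS 2 and 322 in LMS 5. The LMS sets met at 307 FPKM for Serinc3, which differed by -1.27 ± 0.08 (adjusted p = 4.9e-09). Among further genes lower in all 3 fits were Bmf, an inducer of apoptosis (-1.48 ± 0.10), Gemin4 of the complex that assembles spliceosomal particles (-1.48 ± 0.10), Ap5b1 of an adaptor complex of endosomes (-1.57 ± 0.10), Fgd2, an exchange factor for Cdc42 (-1.59 ± 0.27), Stx2, a syntaxin of membrane fusion (-1.46 ± 0.24), and Cyb5rl, Zfp296, Zbtb45 and AW146154 (-1.52 ± 0.16, -1.53 ± 0.11, -1.45 ± 0.12 and -1.24 ± 0.12). Icam1, the adhesion molecule, and Tgfbr2, a receptor of TGF-beta, were lower as well (-1.06 ± 0.11 and -0.94 ± 0.13). Gzma, a granzyme of cytotoxic cells, and Car2, carbonic anhydrase of red cells, were called lower with all samples (-2.38 ± 0.67 and -2.06 ± 0.71) but not without LMS 2 and 5.

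Regulators of transcription and splicing were frequent among the decreases; these groups were picked after their values had been seen, by the start of the gene symbol. Of 280 zinc finger genes with symbols starting Zfp, 134 (47.9%) were called lower and 12 higher, against 19.4% and 11.3% of all genes, and 96 were lower in all 3 fits. On the TPM scale 107 were lower and 13 higher. Of 10 Srsf genes, the serine- and arginine-rich splicing factors, 7 were called lower, all 7 in the 3 fits, and none higher. Srsf3 lay at 39 to 45.8 FPKM in LMA (median 42.5), 90.4 to 94.1 in LMS 1, 3, 4 and 6, 82.2 in LMS 2 and 83.02 in LMS 5. Srsf2 ranged from 51.7 to 61.5 FPKM in LMA (median 54.3) and from 110.0 to 119 in LMS 1, 3, 4 and 6, with 128 in LMS 2 and 120.4 in LMS 5. In both LMA lay below every LMS sample, with log2 differences of -1.04 ± 0.06 (adjusted p = 1.7e-09) and -1.10 ± 0.06 (adjusted p = 2.8e-09). Of 20 Hnrn genes for RNA-binding proteins, 8 were lower and none higher, with Hnrnpm at -0.998 ± 0.09, and of 52 Ddx and Dhx helicases, 22 were lower and 1 higher, with Dhx9 at -1.28 ± 0.09. The share called lower also varied with the number of exons, the largest over the transcripts of a gene in GENCODE M21. It was 32.9% for 240 genes with 1 exon, 30.5% with 2, 23% with 3, and 17.4 to 19.6% in the groups with 4 or more, while the share called higher was 5.83%, 8.82% and 11.9% with 1, 2 and 3 exons and 10.9 to 12.5% beyond. On the TPM scale 64 of the 240 genes with 1 exon were called lower and 17 higher, whereas of 1481 genes with 21 or more exons 159 were lower and 227 higher. The part of gene structure in the counts was not tested.

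**Figure D4:**
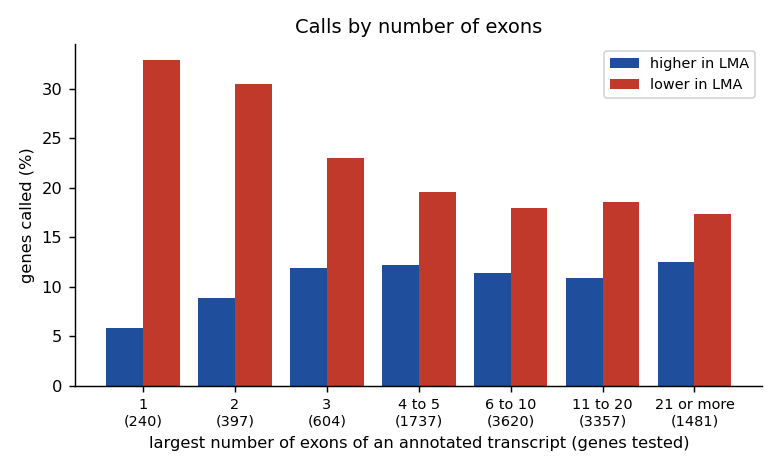
Percent of genes called higher (blue) and lower (red) in LMA against LMS with all samples, by the largest number of exons of an annotated transcript, with the number of genes tested below each pair of bars. The share called lower is 32.9% with 1 exon and 17.4% with 21 or more.

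The lists of cytokine receptors, chemokine receptors, type I interferon stimulated genes, STAT factors and dendritic cells held few lower calls, where 19.4% of all genes were lower. Their higher calls were near or below the share of all genes, 11.3%. Of 25 cytokine receptors, 3 were called higher and 2 lower, with Il6ra, the alpha chain for interleukin-6, lower in all 3 fits (-0.53 ± 0.11) and Csf2ra, the alpha chain for GM-CSF, higher (0.77 ± 0.21). Of 23 type I interferon stimulated genes, 3 were called higher and 2 lower, and Oasl1, which limits the translation of Irf7, was higher in all 3 fits (0.58 ± 0.15). Of 17 STAT and SOCS genes, 2 were called higher and 2 lower, with Stat6, the factor downstream of interleukin-4, at -0.25 ± 0.07. Of 18 dendritic cell genes, Tcf4, the factor of plasmacytoid dendritic cells, was the single call, lower in LMA (-0.47 ± 0.09). None of 17 chemokine receptors was called with all samples.

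For several groups the median turned or moved far between the sets of LMS samples. T cell receptor genes (20 tested) had no call with all samples or without LMS 2 and 5. Without LMS 1, 3, 4 and 6, 4 were lower, where 29.5% of all genes were called higher and 34.8% lower. The median log2 differences in these 3 fits were -0.31, 0.67 and -2.40. Cd3e had a median of 9.30 FPKM in LMA (6.93 to 11.5), against 2.76 to 5.58 in LMS 1, 3, 4 and 6, 55.5 in LMS 2 and 55.8 in LMS 5. The LMA samples thus lay above one set and below the other. Without LMS 2 and 5, Cd3e (1.07) was called in a fit to LMA and LMS alone, whose spread leaves out LM and N. B cell genes (17 tested) had medians of -0.53, 0.41 and -2.41, and class II presentation genes (13 tested) of -0.49, 0.32 and -2.12. Of 20 red cell genes 20 were called lower without LMS 1, 3, 4 and 6 and none without LMS 2 and 5, and of 18 genes of NK and cytotoxic cells 14 and none. The spread of these fits takes in N, where hemoglobin genes held 0.037 to 22.9% of protein-coding FPKM. A missing call is therefore not a sign of equal levels. The hemoglobin share was 0.463 to 0.897% in LMA and 0.180 to 0.371% in LMS 1, 3, 4 and 6, without overlap. Interferon-gamma induced GTPases had 12 of 14 lower without LMS 1, 3, 4 and 6, and 1 of them, Irgm1, which acts against intracellular bacteria, lay at 9.50 to 11.7 FPKM in LMA (median 9.99), 14.7 to 16.7 in LMS 1, 3, 4 and 6, 34.7 in LMS 2 and 35.7 in LMS 5. Of this list, Irgm1 was the one gene lower in all 3 fits (-0.97 ± 0.25, adjusted p = 0.0067). Glycolysis and cholesterol synthesis had higher calls only, but differed in size between the sets. Of 20 glycolysis genes, 5 were called higher with all samples, 4 without LMS 2 and 5 and 19 without LMS 1, 3, 4 and 6, with medians of 1.09, 0.19 and 3.07. Of 20 cholesterol synthesis genes the counts were 3, 2 and 19, with medians of 0.90, 0.08 and 2.09. Ldha, lactate dehydrogenase, ranged from 868 to 945 FPKM in LMA (median 919.7) and from 887 to 920.2 in LMS 1, 3, 4 and 6, with 88.97 in LMS 2 and 90.6 in LMS 5. Slc2a1, the glucose transporter GLUT1, was higher in all 3 fits (2.05 ± 0.45, adjusted p = 0.0023).

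**Figure D5:**
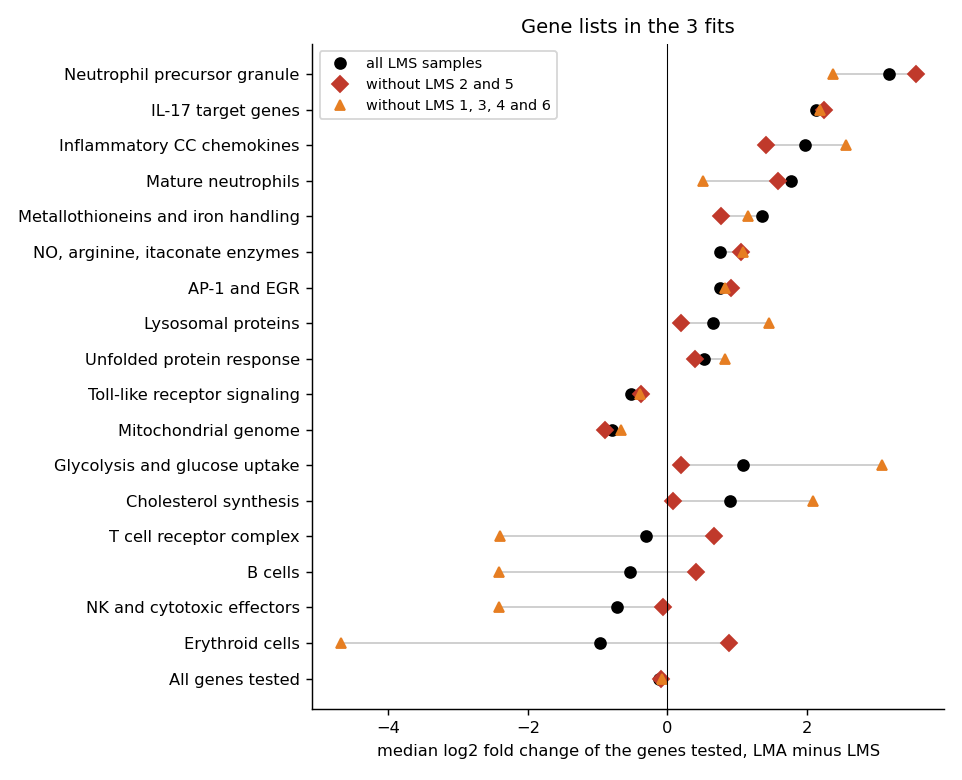
Median log2 difference (LMA minus LMS) of the tested genes of 17 gene lists and of all genes tested, with all LMS samples (circles), without LMS 2 and 5 (diamonds) and without LMS 1, 3, 4 and 6 (triangles). Granule genes lie at 3.17, 3.56 and 2.37, and red cell genes at -0.96, 0.89 and -4.68.

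The genes called in opposite directions against the 2 sets were led by Slc6a12, a betaine and GABA transporter. Slc6a12 had a median of 6.76 FPKM in LMA (5.97 to 8.41), against 44.4 to 50.1 in LMS 1, 3, 4 and 6, 0.0498 in LMS 2 and 0.171 in LMS 5. Serpinb8, an inhibitor of serine proteases, lay at 2.88 to 3.43 FPKM in LMA (median 3.24), 11.05 to 12.2 in LMS 1, 3, 4 and 6, 0.291 in LMS 2 and 0.217 in LMS 5. Atp6v0d2, a subunit of the vacuolar proton pump, ranged from 1.57 to 2.21 FPKM in LMA (median 1.90) and from 5.88 to 6.76 in LMS 1, 3, 4 and 6, with 0.144 in LMS 2 and 0.0442 in LMS 5. LMA lay between the 2 sets in each, and of the 180 genes 163 were lower against LMS 1, 3, 4 and 6 and higher against LMS 2 and 5. The other 7 leading genes were members of the Ugt1a cluster, glucuronosyltransferases that share exons, so their values are not separate.

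Constant genes of antibodies were tested among all gene types, where 1555 of 14395 genes (10.8%) were called higher and 2492 (17.3%) lower. Ighe, the constant region of IgE, was at 5.71 to 8.67 FPKM in LMA, 0.586 to 1.24 in LMS 1, 3, 4 and 6, 4.28 in LMS 2 and 5.64 in LMS 5, and was called higher (log2 difference 1.82 ± 0.56, adjusted p = 0.021) but not without LMS 1, 3, 4 and 6 (0.44, adjusted p = 0.59). Ighm, of IgM, was at 1303 to 1757 FPKM in LMA, 329 to 678 in LMS 1, 3, 4 and 6, and 4187 and 4280.4 in LMS 2 and 5, and was not called (0.65 ± 0.80, adjusted p = 0.594). Ighg2c, of an IgG class made under interferon-gamma, lay at 7.75 to 12.5 in LMA and 0.939 to 2.01 in LMS 1, 3, 4 and 6, but at 8.78 and 10.4 in LMS 2 and 5. Plasma cells were described by 9 genes, with a median log2 difference of 0.13. Sdc1, the surface marker CD138, was the single call with all samples and was higher in all 3 fits (1.23 ± 0.14). Of 613 lincRNA, antisense and processed transcript genes, 58 were called higher and 105 lower. Erich2os, an antisense gene, was at 3.25 to 4.49 FPKM in LMA and 0 to 0.184 in LMS, and Mir17hg, the host of the miR-17 cluster, at 1.12 to 1.33 and 2.04 to 4.74. Without a stated strand setting, an antisense gene and its partner cannot be told apart.

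The levels in LM and N are set beside those of LMA and LMS for the genes called in all 3 fits, as a description, since these groups also differ in weeks and doses. Of the 833 genes higher in LMA, the LM mean was nearer to LMA than to LMS in 829, and the N mean was nearer to LMS in 816. The median gene of the 833 was at 8.98 FPKM in N, 15.7 in LM, 16.1 in LMA and 9.18 in LMS. Of the 1336 genes lower in LMA, LM was nearer to LMA in 1314 and N nearer to LMS in 1327, with medians of 9.26, 5.53, 5.42 and 8.75 FPKM. Saa3, for example, was at 48.3 to 54.3 FPKM in LM and 0.237 to 0.759 in N, and Itga4 at 25.6 to 26.7 and 55.2 to 247. The granule genes lay somewhat lower in LM than in LMA, with Ngp at 275 to 329 FPKM in LM against 387 to 537. Over the genes tested, N 3 correlated at 0.970 to 0.986 with LMS 1, 3, 4 and 6, and LM at 0.983 to 0.993 with LMA, so that with N 2 and LMS 2 and 5 the likeness of samples did not follow the treatment labels. The genes counted above were picked for differing from both sets of LMS samples, and the same counts over all genes were not made. Those counts therefore do not measure a return to the untreated level. Treatment and the origin of the libraries cannot be told apart in these comparisons.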

How the data were processed

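RNA sequencing of 18 splenocyte samples was deposited as 1 table per sample. The authors estimated an FPKM value for each gene, and the deposited coverage signal, the mean read depth over a gene, was used here only to derive the gigabases of aligned sequence per sample. The submitters' processing notes name mm10 and GATK 4.2, while which aligner and which quantifier were run is not given in the sources used here. The values of the 47729 reference genes were taken. Protein-coding genes (by GENCODE M21) whose mean reached 0.5 FPKM were tested on log2(FPKM + 0.5) with limma 3.58.1 (R 4.3.3, lmFit and eBayes with trend) over all 18 samples in 4 groups, with Benjamini-Hochberg adjustment at 0.05. The deposited FPKM give no counts, so intervals for counting error are not given. Shares of FPKM were tested by exact two-sided permutation (SciPy 1.17.1). The limma fit was checked on simulated data.

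The gene lists, the rule for named genes and the 2 sets of LMS samples were chosen with earlier results of these data known. The rule took the antibody targets and ligands, the genes of largest change without overlap, those of largest change called in all 3 fits, those called in opposite directions against the 2 sets, members of the described lists, and antibody constant genes. Srsf2, Srsf3, Hnrnpm, Dhx9, Erich2os and Mir17hg were named after their values were seen, as were the groups by symbol and exon number. Alternatives changed the pseudocount, the filter, the scaling, the samples in the fit, the weights and the test, and left out each sample in turn.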

Additional observations from a re-analysis of the deposited data

Results flagged for a closer look

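In 13 of 328 sets of 6 values that were checked for a sample far from the others, 1 sample stood apart, and chance gives about 1 in 20 such sets. Within LMA, sample 6 stood apart for Cr1l at 20.58 FPKM (nearest 15.96), for Fos at 113.1 (nearest 143.5), for Jun at 58.18 (nearest 69.03), for Stat6 at 29.99 (nearest 32.43) and for Urah at 26.73 (nearest 24.39). LMA 3 stood apart for Hnrnpm at 30.18 FPKM (nearest 38.66) and for Ticam1 at 10.45 (nearest 11.47), LMA 2 for Icam1 at 7.448 (nearest 6.585) and for Npc1 at 13.24 (nearest 14.25), and LMA 1 for Eif2s3y at 36.75 (nearest 35.23). Within LMS, sample 1 stood apart for Ddit3 at 6.494 FPKM (nearest 9.874), sample 5 for Prss34 at 1.20 (nearest 0.5622) and sample 6 for Urah at 0.01753, where the others are listed at 0. LMA and LMS remained apart in each of these genes except Eif2s3y.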

How the results depend on the processing

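Of 159 protein-coding genes in the text, 132 kept their side of the threshold, with no called direction turned, under all of 23 other settings in which they were tested, the 12 samples left out in turn among them. With all samples 3509 genes were called, and leaving out 1 sample at a time gave 3061 to 3458 (1112 to 1312 higher, 1934 to 2164 lower). Over all gene types the range was 3549 to 3947 (1357 to 1565 higher, 2178 to 2440 lower). A mean of at least 5 FPKM, which tests fewer genes, left 1449 lower, and over all gene types 2519 (981 higher, 1538 lower). On the TPM scale 1545 genes were called higher and 1476 lower, with a median of ratios 1764 and 1607, and with totals that left out hemoglobin and mitochondrial genes 1207 and 2556. Sample weights gave 8327 calls (3235 higher, 5092 lower) and called Alas2 (1.51), Cd3e (1.03), Mrc1 (0.59), Spic (0.66) and mt-Co1 (-0.23) with the sign turned. The weights were 0.03164 for LMS 2 and 0.03175 for LMS 5, against 2.135 to 4.119 for the other LMS samples. This setting thus nearly leaves LMS 2 and 5 out.

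Whether the numbers 1 to 6 pair LMA with LMS was not settled. Correlations of deviations under the same number ran from -0.281 to 0.377 and were over 0.1 in 4 of 6 pairs. The same number gave the highest correlation for LMA 2 and LMA 4. These values cannot decide it, because the LMS deviations are from a mean over both sets of LMS samples. With the replicate number as a block 3384 genes were called (1223 higher, 2161 lower).

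The other alternatives were added after the data were seen. Without LMS 1, 3, 4 and 6, 7355 genes were called (3377 higher, 3978 lower), or 8603 over all gene types (4067 higher, 4536 lower). In this fit the sign turned with a call for Atp6v0d2 (2.0), Cd28 (-1.78), Foxp3 (-1.38), Serpinb8 (2.29), Slc6a12 (3.62) and Tlr2 (1.53). The sign turned without a call for Ccl5 (-0.75), Cd80 (-0.35), Csf3r (-1.56), Ctla4 (-0.26), Cxcl10 (0.024), Cxcr2 (-1.19), Ifng (-0.72) and Myc (-0.55). Without LMS 2 and 5 it turned without a call for Alas2 (1.55), Cd3e (1.07), Eif2s3y (-0.17), Mitf (-0.34), Mrc1 (0.63), Spic (0.66), mt-Co1 (-0.23), Cd79a (0.16), Cd86 (0.25) and Slc40a1 (0.39). A fit to LMA and LMS alone has the same values and calls more genes, 9666 without LMS 1, 3, 4 and 6 (4507 higher, 5159 lower) and 8204 without LMS 2 and 5 (3188 higher, 5016 lower), among them each of these genes except Cxcl10, Cd79a, Cd86 and Slc40a1. Without LMS 2 and 5 the shares of FPKM changed to differences of 0.35 percentage points for hemoglobin and -0.284 for ribosomal proteins, which both turned, and of -4.88 for mitochondrial genes and -0.365 for Lyz2, each at the smallest exact permutation p that 6 against 4 samples allow (0.00952). For calls that changed, the cause was not tested beyond the samples left out. FPKM of low genes rest on few reads, and their error is unknown.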
